A study of Mus musculus with 6 samples.

Results

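The expression of Gpr83, which encodes a G protein-coupled receptor of regulatory T (Treg) cells, was examined with 7 further genes known from Treg cells (Foxp3, Ikzf2, Ikzf4, Lrrc32, Itgb8, Il1r2 and Capg) in follicular helper T (Tfh) cells with and without the transcriptional coactivator Bob1. These 8 genes were chosen by name from 22521 genes that could be matched in all 6 libraries, with the change of some of them between the groups already known. Their values between the groups are therefore given as a description, without a test. Of the 8 genes, 6 reached the mean of 1 FPKM (fragments per kilobase and per 1000000 fragments mapped) over the 6 libraries at which a gene was tested, and 10052 genes in all did so. Lrrc32 and Foxp3 stood below it.

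Tfh cells, taken as CD3+ CD4+ T cells with CXCR5 and PD-1 and without B220 and GFP, were sorted from the spleen on day 7 after intraperitoneal injection of 100 µg of NP-CGG in complete Freund's adjuvant. The group labelled Bob1KO came from FoxP3GFP/DTR CD4Cre/+ Bob1fl/fl mice and the group labelled WT from FoxP3GFP/DTR CD4+/+ Bob1fl/fl mice, with 3 libraries each, and every library was made from 0.7 ng of RNA of several mice pooled in 1 experiment. All mice, controls included, carried the FoxP3GFP/DTR reporter allele and the floxed allele that covers the whole of Pou2af1, the gene of Bob1. Cre was driven by the Cd4 promoter, so that the deletion reached all T-lineage cells that express or have expressed Cd4, Treg cells among them. Cells with GFP, that is, FoxP3+ follicular regulatory T (Tfr) and other Treg cells, were removed in the sort. Mice were adult and on a C57BL/6 background, and the labels do not give their sex.

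Tfh cells provide help to B cells in germinal centres, whereas Treg and Tfr cells, which are defined by the transcription factor Foxp3, restrain immune responses. Foxp3 acts with the Ikaros family members Helios and Eos, and Treg cells hold latent TGF-beta at their surface and release it through an integrin. Several genes of this programme are also transcribed in activated or follicular CD4+ T cells without Foxp3, so that their RNA alone does not mark a Treg cell.

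The libraries held an estimated 18300000 to 26000000 mapped fragments. Pou2af1, the targeted gene, was read first and fell from 37.7 ± 7.37 FPKM (SD, n = 3) in WT to 0.571 ± 0.512 FPKM (SD, n = 3) in Bob1KO Tfh cells (log2 fold change of FPKM + 1, -4.65 ± 0.256 SE, limma, adjusted P = 0.00338). All 10 Tfh markers looked at were expressed in all libraries, and their summed FPKM lay between 3022 and 4364 in WT and between 3207 and 4438 in Bob1KO Tfh cells. Both replicate 2 libraries held RNA of the Y chromosome (Ddx3y at 29.9 and 27.9 FPKM), which was listed at 0 for this gene in the other 4 libraries. Xist, the RNA of the inactive X chromosome, was at 0.00243 and 0.00966 FPKM in replicate 2 and between 6.45 and 12.7 FPKM in the others, so that the same replicate number went with the same sex in both groups.

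Summed over 13 matched myeloid markers, led by S100a8, S100a9 and Ngp of neutrophils, the libraries differed far more. This sum was 810 FPKM in WT 1, 725 in WT 2 and 1275 in WT 3, and 5155 in Bob1KO 1, 178 in Bob1KO 2 and 1824 in Bob1KO 3. None of the 13 was listed at 0 in any library, and the group ranges overlapped. The 10 markers of B cells and plasma cells added up to between 5.01 and 26.5 FPKM, the 8 of NK cells and CD8+ T cells to between 99.3 and 161 FPKM, and the 8 of dendritic cells, of which Clec9a was listed at 0 in all libraries, to at most 2.43 FPKM. The 5 matched markers of platelets and megakaryocytes summed to at most 3.12 FPKM and the 6 of erythroid cells to at most 18.2 FPKM. Only part of these markers reached the filter and were tested. They were 10 of Tfh cells, 12 myeloid, 6 of NK cells and CD8+ T cells, 3 of B cells and plasma cells and 3 erythroid, but 0 of dendritic cells and 0 of platelets. None of the tested markers passed the adjusted P of limma. At an unadjusted P below 0.05 there was 1 of the Tfh list (Cd4, higher in Bob1KO). Of the list of NK cells and CD8+ T cells there was 1 as well (Prf1, lower in Bob1KO). Among all genes tested, 3.18% were higher and 2.18% lower at this P. The change of S100a8 was 0.11 ± 1.301 (SE), so that not passing does not show equal levels of myeloid RNA.

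Across the 10052 genes tested with limma, 1 gene was higher and 1 was lower in Bob1KO Tfh cells at an adjusted P of 0.05, which is 0.00995% of the genes in each direction. These were Pcsk1, which encodes a convertase of prohormones (log2 fold change 2.40 ± 0.194 SE, adjusted P = 0.0235), and Pou2af1 itself. With the replicate number as a block, 0 genes were higher and 1 was lower (0% and 0.00995%). At an unadjusted P of 0.05, 320 genes (3.18%) were higher and 219 (2.18%) lower. Of the 6 chosen genes above the filter 0 were past the adjusted P, given as a description from which nothing is read, since they were chosen with this comparison known. The change of the median gene was close to 0, and the middle 90% of genes lay between -0.39 and 0.49 on the log2 scale.

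Gpr83 lies on chromosome 9 of GRCm38, from 14860210 to 14870789 on the plus strand. Its protein is a receptor that spans the membrane, abundant in Treg cells and in parts of the brain, and it has been described as a receptor of the peptide PEN. The promoter window of Gpr83 (RefSeq, GRCm38.p6, chr9:14859960-14860259, plus strand, from 250 bases before to 50 bases after the annotated start) is shown because the assembled transcripts of all 6 libraries began inside it, and that of Foxp3 (chrX:7579426-7579725, plus strand) because both windows hold the same motif. Capitals mark the TATA box letters TATAAA.
Gpr83 promoter window: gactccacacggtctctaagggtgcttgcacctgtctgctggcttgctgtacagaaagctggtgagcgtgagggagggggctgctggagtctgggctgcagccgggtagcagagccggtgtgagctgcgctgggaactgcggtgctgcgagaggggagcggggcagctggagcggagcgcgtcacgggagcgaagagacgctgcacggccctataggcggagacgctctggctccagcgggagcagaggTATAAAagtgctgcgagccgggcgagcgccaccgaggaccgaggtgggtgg
Foxp3 promoter window: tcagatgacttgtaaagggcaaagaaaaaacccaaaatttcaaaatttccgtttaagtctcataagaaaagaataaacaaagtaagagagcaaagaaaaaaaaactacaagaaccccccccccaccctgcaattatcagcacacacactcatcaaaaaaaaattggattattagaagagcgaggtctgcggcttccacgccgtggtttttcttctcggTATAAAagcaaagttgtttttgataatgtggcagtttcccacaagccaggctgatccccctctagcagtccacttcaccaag
The letters TATAAA, searched on both strands after the windows had been read, stand in 13.6% of the 32851 mouse promoter windows of the same length. In the Gpr83 window they begin at base 250 of 300, at position 14860209, and 5 of the 6 libraries had the start of the assembled Gpr83 transcript between 14860238 and 14860254, downstream of these letters. In WT 3 the transcript began further upstream, at 14860122. The window of Gpr83 has a GC content of 67% and 24 CG dinucleotides, against medians of 52.7% and 7 over all windows, and that of Foxp3 shown here has 40.7% and 6. Neither the octamer ATTTGCAT, which Oct factors and Bob1 bind together (in 1.74% of all windows), nor the forkhead motif GTAAACA (in 3.65%) was found on either strand in the 6 windows on hand for Gpr83, Foxp3 (2 windows), Il1r2, Itgb8 and Capg. This says only that these letters are not in these windows.

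In WT Tfh cells, Gpr83 stood at 6.79, 6.02 and 7.38 FPKM in replicates 1, 2 and 3, and in Bob1KO Tfh cells at 3.57, 3.58 and 3.53 FPKM. All Bob1KO libraries were below all WT libraries, which held for 4.86% of all genes tested, and the 3 Bob1KO values were almost the same. The means were 6.73 ± 0.681 FPKM (SD, n = 3) in WT and 3.56 ± 0.0265 FPKM (SD, n = 3) in Bob1KO, a ratio of 0.528. On the log2 scale of FPKM + 1 the change was -0.76 ± 0.147 (SE), or ± 0.158 with the replicate block. Between libraries of the same number it was -0.77, -0.62 and -0.89. Of all genes tested, 1.37% had a change at or below this value. Gpr83 was lower in Bob1KO in all pairs, as were 13.5% of all genes tested. In bulk RNA, fewer cells that express a gene and less of its RNA in each cell cannot be told apart.

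The level of Gpr83 was low for these libraries, at percentile 23.3 of the means of all tested genes. From the confidence limits that Cufflinks gave, its values rested on about 302, 212 and 301 fragments in WT and 164, 216 and 152 in Bob1KO Tfh cells. Those limits were 6.01 to 7.58 FPKM in WT 1 and 3.01 to 4.12 FPKM in Bob1KO 1, and they cover counting error only. The lowest WT limit (5.19 FPKM in WT 2) was above the highest Bob1KO limit (4.12 FPKM in Bob1KO 1). The assembly also cut the gene differently in each library: in WT 2 and WT 3 the 3′ end stood in a row of its own, at 1.13 and 1.29 FPKM, which was not added. The Bob1KO libraries had no such row of Gpr83, so that adding them could only make its change more negative. With these rows added, the change was -0.90 ± 0.17 (SE). The pooled FPKM of the authors, from 1 common assembly, were 6.78 in WT and 4.03 in Bob1KO, a log2 ratio of FPKM + 1 of -0.63.

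**Figure D1:**
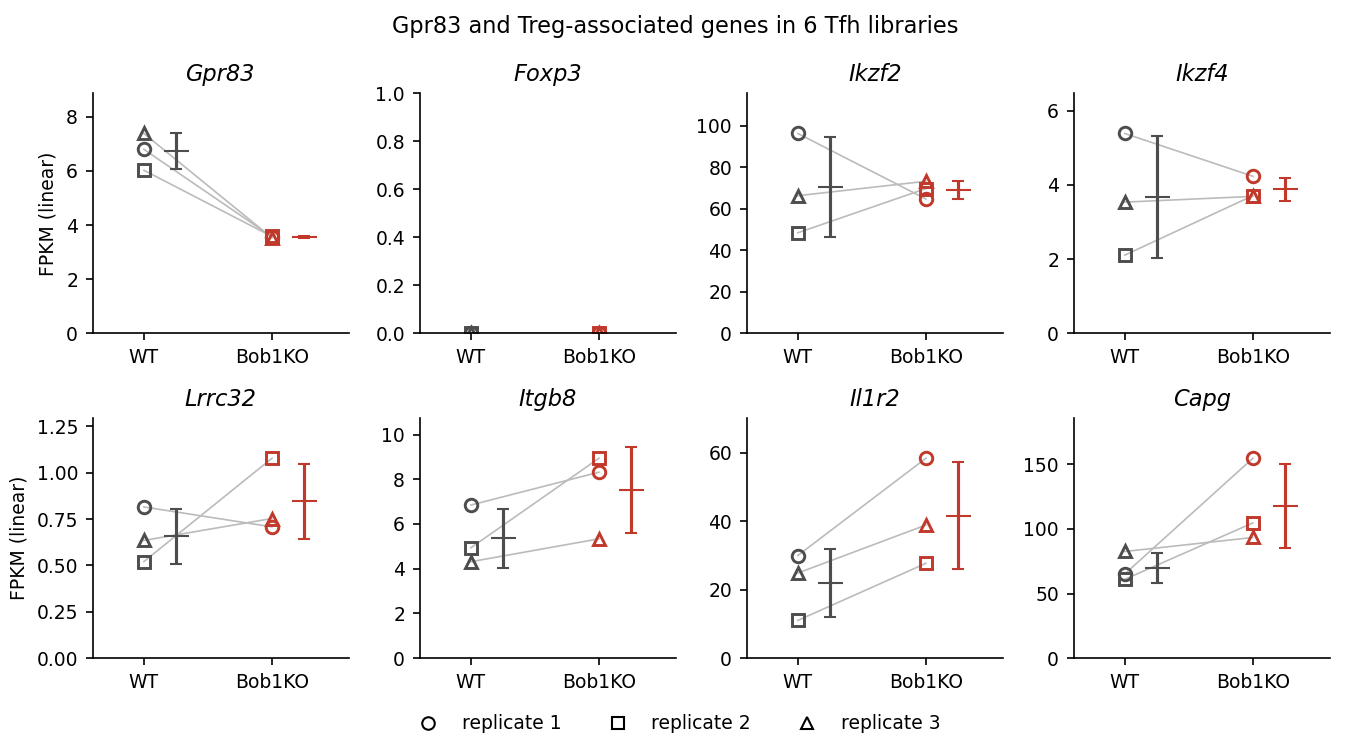
FPKM (linear axis from 0) of each of the 8 genes in the 3 WT (grey) and 3 Bob1KO (red) Tfh libraries. The marker shape gives the replicate number, thin lines join libraries of the same number, and bars beside the points are the mean ± SD. Gpr83 is the gene whose Bob1KO values (3.53 to 3.58) all lie below its WT values (6.02 to 7.38), Capg the gene whose Bob1KO values all lie above, and Foxp3 is listed at 0 throughout.

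The ligands of Gpr83 were barely or not measured. Pcsk1n, which encodes proSAAS, the precursor of PEN, was listed at 0 in 5 of 6 libraries and at 0.0574 FPKM in Bob1KO 3. Fam237a and Fam237b, described as ligands too, could not be matched to a row in all libraries.

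Foxp3, the defining transcription factor of Treg cells (chromosome X, 7579669 to 7595245, plus strand), was listed at 0 FPKM in all 6 libraries. Its row spanned the neighbouring upstream gene 4930524L23Rik as well, so that the value is one for both. A 0 of this kind is not proof of absence: of 6900 genes to which the authors' pooled table gave at least 5 FPKM in both groups, 23 (0.333%) were listed at 0 in all 6 libraries. In that pooled table the joint row of both genes was at 0.225 FPKM in WT and 0.280 FPKM in Bob1KO. A second row, from 7593809 to 7605420, covered the last 1437 bases of Foxp3 and continued past its end, at 8.71 to 12.6 FPKM in WT and 10.1 to 11.1 FPKM in Bob1KO, and reads of Foxp3 in it cannot be told apart from those of the next gene.

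The Ikaros family members that act with Foxp3 had values above 0 in all 6 libraries. Ikzf2, which encodes Helios (chromosome 1, 69531214 to 69685821, minus strand), was at 96.2, 48.4 and 66.3 FPKM in WT and at 64.7, 69.7 and 73.2 FPKM in Bob1KO Tfh cells. The Bob1KO libraries lay within the spread of the WT libraries, with means of 70.3 ± 24.1 and 69.2 ± 4.29 FPKM (SD, n = 3 each). The log2 change was 0.03 ± 0.233 (SE) and went from -0.57 in pair 1 to 0.52 in pair 2.

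Ikzf4, which encodes Eos, a partner through which Foxp3 silences genes (chromosome 10, 128630843 to 128645991, minus strand), was at 5.38, 2.11 and 3.54 FPKM in WT and at 4.23, 3.71 and 3.69 FPKM in Bob1KO Tfh cells. Helios and Eos kept the same order in the WT libraries, highest in WT 1 and lowest in WT 2, and both varied less among the Bob1KO libraries. The log2 change of Ikzf4 was 0.12 ± 0.272 (SE), with -0.29, 0.60 and 0.05 in the pairs. For both genes the sign turned with single libraries: without WT 1 the change was positive, and without WT 2 it was negative (Ikzf2 from -0.21 to 0.28 and Ikzf4 from -0.14 to 0.38 over the libraries left out).

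Among 26 further transcription factors that act with Foxp3 or in Treg cells, all tested, 0 passed the adjusted P of limma in either direction. At an unadjusted P of 0.05, 3 were higher and 0 lower, beside 3.18% and 2.18% of all genes tested. The log2 changes of the 26 factors were positive for 14 and negative for 12, with a median of 0.11. This median was 0 without Bob1KO 2 and 0.05, 0.06 and 0.07 without WT 1, WT 2 and WT 3. Plagl1, a zinc finger factor, was at 1.84, 1.09 and 0.400 FPKM in WT and at 4.97, 2.82 and 3.03 FPKM in Bob1KO Tfh cells (log2 change 1.15 ± 0.319 SE, adjusted P = 0.792). All its Bob1KO values were above all its WT values, as held for 5.86% of all genes tested. Foxo3, a forkhead factor, was at 1.11 to 1.31 FPKM in WT and at 2.06 to 4.56 FPKM in Bob1KO Tfh cells (0.79 ± 0.272 SE, adjusted P = 0.908). The most abundant of the list were Tcf7, which encodes the Tfh factor TCF-1, with a change of 0.11 ± 0.120 (SE), and Id3, an inhibitor of E proteins, with 0.15 ± 0.140 (SE).

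Lrrc32 and Itgb8 both serve in the handling of latent TGF-beta at the cell surface. Lrrc32 encodes GARP, which tethers latent TGF-beta to Treg cells (chromosome 7, 98494222 to 98501831, plus strand). It was at 0.816, 0.521 and 0.635 FPKM in WT and at 0.708, 1.08 and 0.753 FPKM in Bob1KO Tfh cells, below the filter, and the groups overlapped. Without the filter its log2 change was 0.15 ± 0.123 (SE).

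Itgb8 encodes the integrin beta8 chain, which pairs with the alphaV chain to set TGF-beta free (chromosome 12, 119158022 to 119238802, minus strand). It was at 6.85, 4.94 and 4.31 FPKM in WT and at 8.32, 8.94 and 5.34 FPKM in Bob1KO Tfh cells. The groups overlapped, as Bob1KO 3 lay below WT 1, but Itgb8 was higher in Bob1KO in each pair (by 0.25, 0.74 and 0.25 on the log2 scale), as were 15% of all genes tested. Means were 5.37 ± 1.32 and 7.53 ± 1.93 FPKM (SD, n = 3 each), and the log2 change was 0.42 ± 0.236 (SE), or ± 0.174 with the replicate block. Itgav, the gene of its partner chain, was at 11.1 to 33.1 FPKM in WT and at 13.4 to 21.1 FPKM in Bob1KO Tfh cells (-0.03 ± 0.410 SE).

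Of 18 genes of TGF-beta activation and signalling, 14 were tested, and 0 passed the adjusted P of limma. At an unadjusted P of 0.05, 1 was higher and 0 lower, beside 3.18% and 2.18% of all genes tested. The changes of the 14 were positive for 9 and negative for 5, with a median of 0.09. Single libraries moved this median: it was 0.29 without WT 3, 0.14 without Bob1KO 3, 0.02 without Bob1KO 1 and 0.01 without WT 2. The 1 gene was Tgfbr2, which encodes the ligand-binding TGF-beta receptor chain. It was at 55.7 to 58.2 FPKM in WT and at 67.2 to 76.4 FPKM in Bob1KO Tfh cells (0.30 ± 0.101 SE, adjusted P = 0.908). All its Bob1KO values were above all its WT values, as held for 5.86% of all genes tested. Skil, a repressor of Smad proteins, changed by 0.42 ± 0.207 (SE, adjusted P = 0.944) and Itgb1, the gene of the integrin beta1 chain, by 0.32 ± 0.197 (SE, adjusted P = 0.947). Transcripts of TGF-beta itself were present, with Tgfb1 at 27.8 to 69.3 FPKM over the 6 libraries and a change of -0.02 ± 0.295 (SE).

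Il1r2 encodes the type 2 IL-1 receptor, which binds IL-1 without signalling and so acts as a decoy, and it is known from Tfr cells and neutrophils (chromosome 1, 40084698 to 40125231, plus strand). It was at 30.0, 11.0 and 24.9 FPKM in WT and at 58.5, 27.7 and 38.9 FPKM in Bob1KO Tfh cells. The groups overlapped, because Bob1KO 2 was below WT 1. In each pair the Bob1KO library was higher, by 0.94, 1.25 and 0.63 on the log2 scale, as held for 15% of all genes tested. Replicate 2, from male mice, was the lowest of the 3 in both groups. The means were 22.0 ± 9.82 and 41.7 ± 15.5 FPKM (SD, n = 3 each), and the log2 change was 0.94 ± 0.400 (SE), or ± 0.154 with the replicate block. Of all genes, 1.27% had a change at or above this value. It was 0.53 without WT 2 and 1.21 without WT 1, so that 1 library moved it by more than 1.5 times.

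Capg encodes a gelsolin-like protein that caps the fast-growing ends of actin filaments (chromosome 6, 72544391 to 72562983, plus strand). It was at 65.2, 61.0 and 82.6 FPKM in WT and at 155, 105 and 93.4 FPKM in Bob1KO Tfh cells. All Bob1KO libraries were above all WT libraries, as held for 5.86% of all genes tested. The means were 69.6 ± 11.4 and 118 ± 32.6 FPKM (SD, n = 3 each). The log2 change was 0.73 ± 0.211 (SE), or ± 0.215 with the replicate block, with 1.23, 0.77 and 0.18 in the pairs. Of all genes, 2.31% had a change at or above this value, and without Bob1KO 1 it was 0.51.

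**Figure D2:**
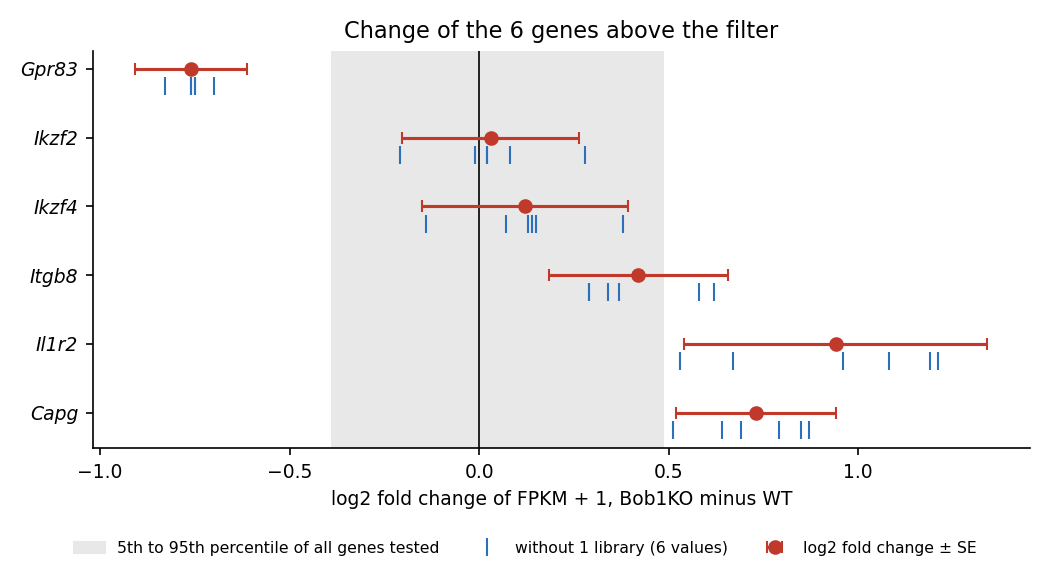
Log2 fold change of FPKM + 1 (Bob1KO minus WT, horizontal axis) of the 6 tested genes, as points with bars of ± 1 SE. Blue ticks give the change with each of the 6 libraries left out in turn, and the grey band is the middle 90% of all 10052 genes. Gpr83 (-0.76) lies left of the band and Il1r2 (0.94) and Capg (0.73) right of it, while Ikzf2, Ikzf4 and Itgb8 lie within it.

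Il1r2 and Capg are also expressed in myeloid cells, and the library with the highest values of both, Bob1KO 1, was the one with the most myeloid marker RNA (5155 FPKM). In pair 2 the order was the opposite: Bob1KO 2 had less of it than WT 2 (178 against 725 FPKM) and more Il1r2 (27.7 against 11.0 FPKM) and Capg (105 against 61.0 FPKM). Without Bob1KO 1 the log2 change of Il1r2 was 0.67 ± 0.419 (SE) and that of Capg 0.51 ± 0.164 (SE). Gpr83 was the same in Bob1KO 1 and Bob1KO 2 (3.57 and 3.58 FPKM), the libraries with the most and the least myeloid marker RNA. The part of myeloid RNA in the values of Il1r2, Capg and Gpr83 was not tested.

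**Figure D3:**
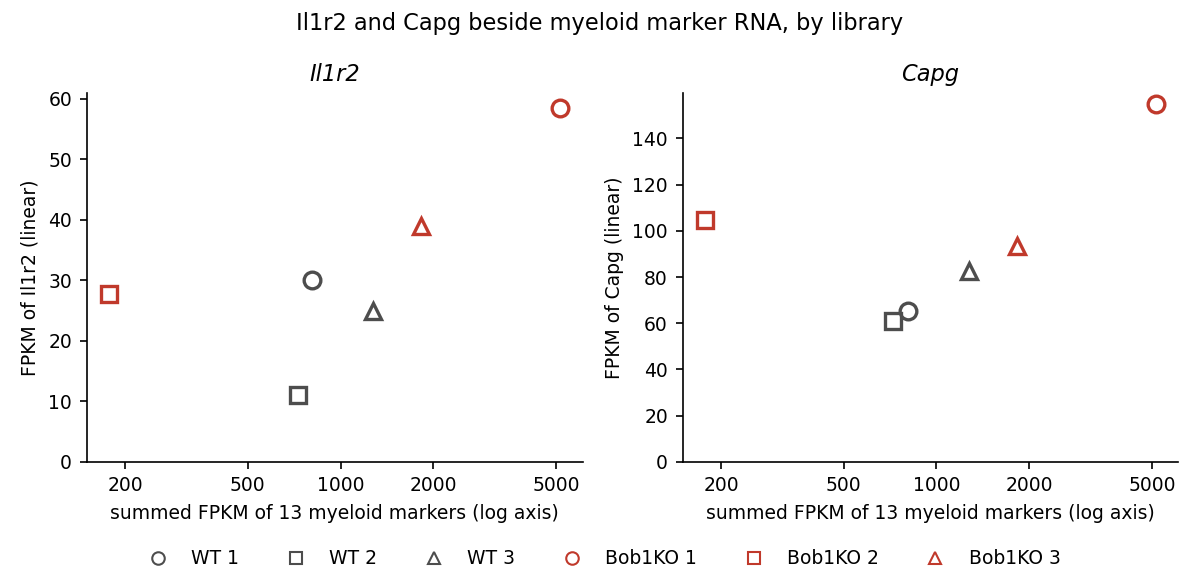
FPKM of Il1r2 (left) and Capg (right, both linear axes from 0) against the summed FPKM of 13 myeloid markers (log axis) in each of the 6 libraries, WT in grey and Bob1KO in red, with 1 marker shape per replicate number. Bob1KO 1 is highest on both axes, whereas Bob1KO 2 has the lowest marker sum (178 FPKM) and lies above WT 2 for both genes.

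The IL-1 genes around Il1r2 were looked at together. Of 14 such genes 13 were tested, and 0 passed the adjusted P of limma. An unadjusted P of 0.05 was passed by 0 as well, beside 3.18% of all genes tested higher and 2.18% lower. The changes of the 13 were positive for 10 and negative for 3. Their median was 0.18, and it was 0.10 without Bob1KO 1. Il1r1, which encodes the signalling IL-1 receptor, was at 7.79, 10.9 and 5.58 FPKM in WT and at 10.4 to 15.01 FPKM in Bob1KO Tfh cells (0.56 ± 0.246 SE, adjusted P = 0.923). Its co-receptor gene Il1rap changed by 0.36 ± 0.231 (SE, adjusted P = 0.947). The abundant members of the pathway, Sigirr and Myd88, changed by -0.13 ± 0.172 and -0.05 ± 0.117 (SE). The decoy was at a higher level than Il1r1 in all 6 libraries, though by little in WT 2 (11.0 against 10.9 FPKM). Il1b, an IL-1 ligand made by myeloid cells, was at 16.2 FPKM in Bob1KO 1 and at 1.16 to 3.44 FPKM in the other 5 libraries.

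Of 9 genes of the gelsolin family and of actin capping, 6 were tested, and 0 passed the adjusted P of limma. At an unadjusted P of 0.05, 1 was higher and 0 lower, beside 3.18% and 2.18% of all genes tested. The median change of the 6 was 0.06, and it was negative without WT 2 (-0.03) or without Bob1KO 1 (-0.05). Svil, which encodes supervillin, an actin-binding protein of the membrane skeleton, was at 4.89 to 6.09 FPKM in WT and at 7.51 to 9.03 FPKM in Bob1KO Tfh cells (0.51 ± 0.153 SE, adjusted P = 0.842). Flii, another family member, changed by 0.10 ± 0.095 (SE). The other type of barbed-end capping protein, encoded by Capza1 and Capzb and more abundant than Capg, changed by -0.05 ± 0.126 and -0.06 ± 0.107 (SE).

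The surface receptors and effector molecules of Treg cells made up the largest group after the transcription factors. Of 24 such genes 22 were matched and 16 tested, and 0 passed the adjusted P of limma. At an unadjusted P of 0.05, 4 were higher and 0 lower, beside 3.18% and 2.18% of all genes tested. The changes of the 16 were positive for 12 and negative for 4, with a median of 0.17. This median was 0.33 without WT 1, 0.27 without Bob1KO 3 and 0.11 without WT 2. Tnfrsf1b, which encodes the TNF receptor 2 of activated Treg cells, was at 38.6, 34.2 and 38.6 FPKM in WT and at 44.8, 53.2 and 51.6 FPKM in Bob1KO Tfh cells (0.41 ± 0.116 SE, adjusted P = 0.793). Nrp1, the gene of the semaphorin receptor neuropilin-1, was at 30.9 to 39.8 FPKM in WT and at 42.4 to 43.5 FPKM in Bob1KO Tfh cells (0.32 ± 0.123 SE, adjusted P = 0.908). Both had all Bob1KO libraries above all WT libraries, as held for 5.86% of all genes tested.

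The most abundant of these genes, Izumo1r, encodes folate receptor 4 and was at 484 to 566 FPKM in WT and at 372 to 496 FPKM in Bob1KO Tfh cells (-0.30 ± 0.144 SE, adjusted P = 0.944). Il2rb, the gene of the IL-2 receptor beta chain, was at 181 to 219 FPKM in WT and at 231 to 245 FPKM in Bob1KO Tfh cells (0.20 ± 0.116 SE, adjusted P = 0.947). Il2ra, which encodes CD25 of Treg cells, was at 0.631 to 1.71 FPKM over all libraries, far below Il2rb. Over all lists 0 of 75 tested genes passed the adjusted P, and 49 changes were positive and 26 negative. At an unadjusted P of 0.05, 9 were higher and 0 lower, beside 3.18% and 2.18% of all genes tested. The lists were chosen with earlier results of these data known, so that nothing is read from these counts.

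**Figure D4:**
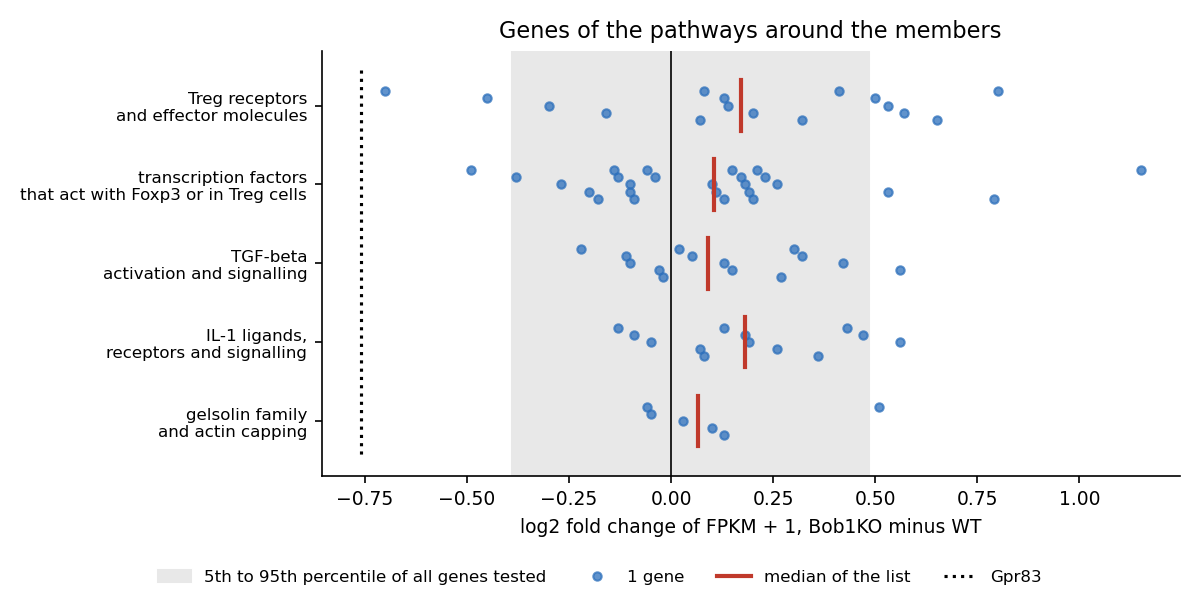
Log2 fold change of FPKM + 1 (Bob1KO minus WT, horizontal axis) of the 75 tested genes of 5 lists around the chosen genes. Each point is 1 gene, the red line the median of its list, the grey band the middle 90% of all genes tested, and the dotted line the value of Gpr83 (-0.76). List medians lie between 0.06 and 0.18 (between -0.05 and 0.33 with 1 library left out), and no listed gene lies as far to the left as Gpr83.

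By level, the 8 genes fell into a few steps. FPKM are per length of transcript, but the assembly cut genes differently, so that levels of different genes compare only roughly. In WT Tfh cells Ikzf2 and Capg were the highest and did not differ beyond their spread, followed by Il1r2. Gpr83, Itgb8 and Ikzf4 came next, each overlapping its neighbour in that order. Lrrc32 and Foxp3 were last, though the 0 of Foxp3 is not proof of absence. In Bob1KO Tfh cells Capg (93.4 to 155 FPKM) was above Ikzf2 (64.7 to 73.2 FPKM), and Gpr83 (3.53 to 3.58 FPKM) was below Itgb8 (5.34 to 8.94 FPKM). The order of Gpr83 and Ikzf4 (3.69 to 4.23 FPKM) was not resolved. In Bob1KO 1 their Cufflinks limits overlapped (3.01 to 4.12 FPKM for Gpr83 and 3.74 to 4.72 FPKM for Ikzf4). The highest library was 5.29 times the lowest for Il1r2 and between 1.99 and 2.55 times for the other 6 genes with values above 0.

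The genes whose log2(FPKM + 1) was most like that of Gpr83 over the 6 libraries were Chn2 (Pearson's r = 0.986), Abhd10 (0.984), Art3 (0.982), Tmem184c (0.982) and Pou2af1 (0.977), and 23 of 10051 genes had an r of at least 0.95. The points are 3 libraries each of 2 groups, so that a shared difference between the groups alone gives a high r. After the group means were taken out, r was 0.878 for Chn2, 0.642 for Abhd10, 0.720 for Art3, 0.256 for Tmem184c and 0.139 for Pou2af1. Gpr83 hardly varied among the Bob1KO libraries, so that these values rest almost only on the 3 WT libraries. Chn2, the gene of a Rac-regulating chimaerin, was at 23.8, 19.0 and 26.6 FPKM in WT and at 12.6, 10.5 and 11.0 FPKM in Bob1KO Tfh cells, a log2 change of -0.96 ± 0.157 (SE, adjusted P = 0.233). Art3, an ecto-ADP-ribosyltransferase gene, was at 2.51 to 3.54 FPKM in WT and at 0.758 to 1.10 FPKM in Bob1KO Tfh cells (-1.04 ± 0.209 SE, adjusted P = 0.385). For the other chosen genes above the filter, r with Gpr83 over the 6 libraries lay between -0.75 and 0.05. After the group means were taken out it was 0.66 for Il1r2, 0.604 for Ikzf4, 0.527 for Ikzf2, 0.494 for Capg and -0.0609 for Itgb8, with the same limit.

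Gpr83 and Pou2af1 lie on the same chromosome, with 36342918 bases between them. Within 1000000 bases of Gpr83, 13 of 24 genes were tested, with a median change of 0.09. Of these, 0 passed the adjusted P of limma or an unadjusted P of 0.05. The unadjusted P was passed by 3.18% of all genes tested as higher and by 2.18% as lower. Izumo1r is one of these neighbours. Within 500000 bases, 0 of the 6 tested neighbours of Il1r2, Il1r1 among them, and 0 of the 13 of Capg passed either P. With so few genes beside those shares, nothing is read from these counts.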

How the data were processed

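RNA of sorted splenic Tfh cells was sequenced in 3 WT and 3 Bob1KO libraries (SMART-Seq v4, no strand). The authors trimmed reads with cutadapt 1.2.1, used TopHat2 2.0.13 for alignment to the mouse build GRCm38, also called mm10, and computed FPKM with Cufflinks 2.2.1, as the methods and the submitters' processing notes give. The deposited FPKM of a library rest on transcripts assembled in it, and rows without a gene name held 94.07% to 95.92% of its FPKM. The sources used here name no annotation version. The authors' table of both groups holds pooled FPKM, used as such, and a log2 fold change, test score, p-value and q-value, which were not used.

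Rows were given to genes (GENCODE M21 spans of the transcripts in that table) where they shared at least 0.5 of their joint length, and in a second round where they covered 0.95 of a gene still without a row. FPKM were summed per gene, and 6 genes with a failed status were left out. This assigned 90.25% to 90.92% of the FPKM, and of rows with a name 98.11% to 98.26% went to it. Genes with a mean of at least 1 FPKM were tested two-sided with limma 3.58.1 (R 4.3.3) on log2(FPKM + 1) with a variance trend and Benjamini-Hochberg adjustment over all genes. This scale understates changes of low genes. The test was checked on simulated data. The files hold no counts. Fragments and depth were estimated from Cufflinks' limits, by which 55.47% to 57.81% of low rows came out whole within 0.05, too few for a count test. The libraries of a group came from 3 experiments, by a figure legend of the study.

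Members and lists were chosen with earlier results of these data known. Named are all members, of each list the genes past the adjusted P or else the 2 of smallest P plus the 2 most abundant, up to 3 abundant markers of other cells, Pou2af1 and the 5 genes most like Gpr83. Other genes (Pcsk1, Il2ra, Itgav, Tgfb1, Il1b, Cd4, Prf1, Clec9a and the sex-linked genes) were named after their values were seen. Same-numbered libraries deviated together from their group means (r = 0.138, 0.155 and 0.127 over genes), each more than with any other number. Deviations from a group mean are tied to each other, so that these r are not independent and are weak ground for pairing. The numbers were taken to pair the libraries, and the fit with a replicate block was an alternative. Promoter windows are those of RefSeq (5 of 8 genes matched). Alternatives changed the pseudocount, the filter, the scaling, the variance trend or the matching of rows, or left out a library. Python 3.11.15 and pandas 2.3.3 were used.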

Additional observations from a re-analysis of the deposited data

How the results depend on the processing

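The change of Gpr83 was negative under all 18 alternatives. It was -0.90 with a pseudocount of 0.1 and -0.63 from the authors' pooled FPKM, and lay between -0.83 and -0.70 with a library left out. With rows inside the gene added it was -0.90. That alternative was chosen after the data were seen and could only lower the value, as just WT libraries had such rows. Itgb8, Il1r2 and Capg stayed positive and Ikzf2 and Ikzf4 changed sign. Genes called higher, 1 in all, were 0 with a pseudocount of 0.1, a mean of at least 5 FPKM, the replicate block or without both replicate 2 libraries, and 2 with median-ratio scaling or quantile normalization. They were between 0 and 3 with a library left out (0 without WT 2 or Bob1KO 3, 2 without WT 1, 3 without WT 3). Genes called lower, 1 in all, were 2 with no filter and 2 with rows inside the gene added, and between 0 (without WT 2) and 5 (without WT 1) with a library left out. No chosen or listed gene was called under any of the 17 alternatives with a test, the replicate block included, and the block changed no other call. Depth was estimated, not given, and Gpr83 rests on 152 to 302 fragments a library.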
